A study of Mus musculus with 2 samples.

Results

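Gata3 encodes GATA3, a zinc-finger transcription factor of the GATA family, and the accessible chromatin of its locus was described in the thymus of 25 day old mice, 2 females of the strain B6CASTF1/J. The mice are first-generation hybrids of C57BL/6J and CAST, so each cell carried both parental genomes, and the deposited values do not separate the alleles. Accessibility was measured by DNase-seq, in which DNase I cuts open chromatin and dense cutting yields a peak. Each library came from its own animal, both belonged to 1 group, and no treatment or genotype was contrasted. The region comprised the Gata3 gene body (ENSMUSG00000015619, chr2:9857078-9890034, minus strand, build mm10) and 400 kb on each side. It held 92 of 127552 peaks in replicate 1 and 50 of 67270 in replicate 2, with 249 of 363775 and 149 of 203939 footprints, short protected stretches within cut DNA.

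GATA3 is needed for the earliest steps of T-cell development, acts again at later thymic stages including the path to CD4 T cells, and directs helper T cells to the Th2 programme. In T and NK cells its transcription is known to depend in part on an enhancer that lies far 3′ of the gene, in a long stretch without other protein-coding genes. GATA proteins bind short motifs around the letters GATA, and enhancers of T cells commonly hold sites for RUNX, ETS, TCF/LEF, E-protein and MYB factors. Distances below are in kb from the start of the principal transcript (position 9878600), counted as downstream on the 3′ side and upstream on the other. Longer GENCODE models start 11.4 kb farther upstream, at position 9890034, so the upstream sites within that stretch count as gene body.

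The sequences shown are those of the distal sites with ranks 1, 2, 3 and 5 by mean density rank, of the densest site of the gene itself and of the DNA before the principal start. The distal site with rank 4, 385 kb downstream, is not printed and had no footprint shared by both libraries. The sequences are C57BL/6J reference sequence (RefSeq GRCm38.p6, the coordinates of mm10), written on the plus strand although Gata3 is on the minus strand. Capitals mark bases that lay inside a footprint in both libraries. In order, they are the peak 284 kb downstream (chr2:9594121-9594340), the central 300 bp of the peak 283 kb downstream (chr2:9595411-9595710), the peaks 197 kb (chr2:9681701-9681960) and 50.8 kb downstream (chr2:9827681-9827960), the peak 1.08 kb upstream of the start (chr2:9879601-9879800) and the 250 bp before the start (chr2:9878601-9878850). None of them overlapped an annotated UTR.
284 kb site: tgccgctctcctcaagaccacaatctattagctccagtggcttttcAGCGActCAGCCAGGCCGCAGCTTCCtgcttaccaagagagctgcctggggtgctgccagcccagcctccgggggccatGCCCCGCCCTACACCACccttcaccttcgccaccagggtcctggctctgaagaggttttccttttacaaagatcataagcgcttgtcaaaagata
283 kb site: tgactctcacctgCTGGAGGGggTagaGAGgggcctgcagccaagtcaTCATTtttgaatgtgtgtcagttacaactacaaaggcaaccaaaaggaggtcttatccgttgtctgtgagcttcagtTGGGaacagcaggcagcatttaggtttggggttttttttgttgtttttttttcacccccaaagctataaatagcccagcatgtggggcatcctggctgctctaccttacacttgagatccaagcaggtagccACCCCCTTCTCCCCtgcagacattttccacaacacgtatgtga
197 kb site: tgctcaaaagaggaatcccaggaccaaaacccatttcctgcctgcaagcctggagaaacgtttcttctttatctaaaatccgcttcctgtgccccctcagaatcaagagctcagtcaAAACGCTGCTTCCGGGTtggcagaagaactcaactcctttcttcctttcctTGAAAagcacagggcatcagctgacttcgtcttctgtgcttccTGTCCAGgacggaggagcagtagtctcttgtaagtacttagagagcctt
50.8 kb site: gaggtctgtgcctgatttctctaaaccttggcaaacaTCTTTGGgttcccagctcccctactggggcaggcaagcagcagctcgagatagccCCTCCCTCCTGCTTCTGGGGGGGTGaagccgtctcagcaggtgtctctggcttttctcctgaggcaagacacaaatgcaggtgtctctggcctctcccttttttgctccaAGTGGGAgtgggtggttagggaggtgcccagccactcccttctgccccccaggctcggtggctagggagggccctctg
1.08 kb upstream site: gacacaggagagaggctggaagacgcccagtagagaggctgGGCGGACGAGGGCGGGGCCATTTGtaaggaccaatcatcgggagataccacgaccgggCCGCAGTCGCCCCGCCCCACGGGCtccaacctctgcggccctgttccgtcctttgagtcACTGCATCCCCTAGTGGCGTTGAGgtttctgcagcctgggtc
250 bp before the start: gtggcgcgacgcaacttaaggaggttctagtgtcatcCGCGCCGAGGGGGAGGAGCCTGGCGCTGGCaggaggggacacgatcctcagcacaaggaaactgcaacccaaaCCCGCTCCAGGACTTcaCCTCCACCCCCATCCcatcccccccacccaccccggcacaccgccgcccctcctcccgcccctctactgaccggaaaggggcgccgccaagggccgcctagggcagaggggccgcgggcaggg

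The capitals covered 41 of 220 bases of the 284 kb site in 3 runs, of 5, 19 and 17 bases. The longest of these runs took in 4 of the 6 bases of a match to an ETS motif (TTCCTG, the reverse complement of CAGGAA). The run of 17 bases held a whole SP/KLF match (CCGCCC, the reverse complement of GGGCGG). In the 197 kb site, a run of 17 bases held a complete ETS match (TTCCGG, the reverse complement of CCGGAA), while its only GATA match (TTATCT) lay outside the footprints of both libraries. The other matches of that site, ETS matches among them, had 0 to 2 bases in capitals. In the printed 300 bp of the 283 kb site, the 35 shared bases fell into 6 short runs. Of these runs, 1 took in 4 of 6 bases of an RBPJ match (TGGGAA). Footprints shared by both libraries also lay in the rest of that site, which is not printed. The site 1.08 kb upstream of the start had the most shared footprint bases of the sequences shown, 72 of 200, in 3 runs of 24 each. It held 3 SP/KLF matches, of which 2 lay wholly and 1 with 5 of 6 bases in capitals. Before the start, 60 of 250 bases were shared, in runs of 30, 15 and 15, and 19 CpG dinucleotides and a GC content of 70% were counted there. Other matches had few or no bases in capitals. The RUNX match of the 284 kb site and all matches of the 50.8 kb site had none. The same held for the TCF/LEF match 1.08 kb upstream and for the ETS and SP/KLF matches before the start. A match is a description of the letters, and binding by any factor was not measured.

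The labelled tissue was checked by promoter peaks, meaning a peak within 1 kb of a gene's 5′ end. Only the outermost annotated 5′ end of each gene was used. Starts inside a gene were thus missed, as is the principal start of Gata3, and a gene without a promoter peak may be open there. Of all protein-coding genes, 61.7% had one in replicate 1 and 55.1% in replicate 2. All 10 markers of the T lineage (Cd3d, Cd3e, Cd3g, Cd247, Lck, Cd4, Cd8a, Cd8b1, Ptcra and Rag1) had one in both libraries. Of 5 markers each, thymic epithelium had 2 and 1 open promoters in replicates 1 and 2, myeloid and dendritic cells 2 and 1, and stroma and endothelium 3 and 2. Of the epithelial markers, Epcam had one in both libraries and Krt5 in replicate 1 alone, and Psmb11, Krt8 and Foxn1, the defining epithelial factor, had none. Lyz2, Pecam1 and Col1a1 of the other lists also had one in both libraries. Of the B-cell genes, Cd79b had a promoter peak in both libraries and Ms4a1 in replicate 1 alone, and Cd79a and Pax5 had none. The thymus holds T cells at many stages, and in bulk tissue a weaker peak cannot be told apart as fewer cells that are open or less cutting per cell. The part of each stage or cell type in the Gata3 peaks was not tested.

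Accessible sites were spread over the whole region, and replicate 1 had more of them. The count was 92 peaks in replicate 1 and 50 in replicate 2, a mean of 71 ± 29.7 (SD, n = 2). Around all 21938 protein-coding genes, the median window of the same flanks held 68 peaks in replicate 1 and 36 in replicate 2, and 66.3% and 65.6% of genes had fewer than Gata3. Neighbouring genes share much of these windows. By raw count the gene body stood out more than its flanks, with 21 and 15 peaks against medians of 2 and 1, more than in 97.5% and 98.5% of genes. Gene body counts were not scaled by gene length, and nested peaks were counted separately. The Gata3 body is 32957 bp long with the longer models, and it also spans the genes 4930412O13Rik, 9230102O04Rik and Gm13256. Gata3 footprints numbered 249 and 149 (199 ± 70.7, SD, n = 2), against medians of 201 and 112 per window.

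**Figure D1:**
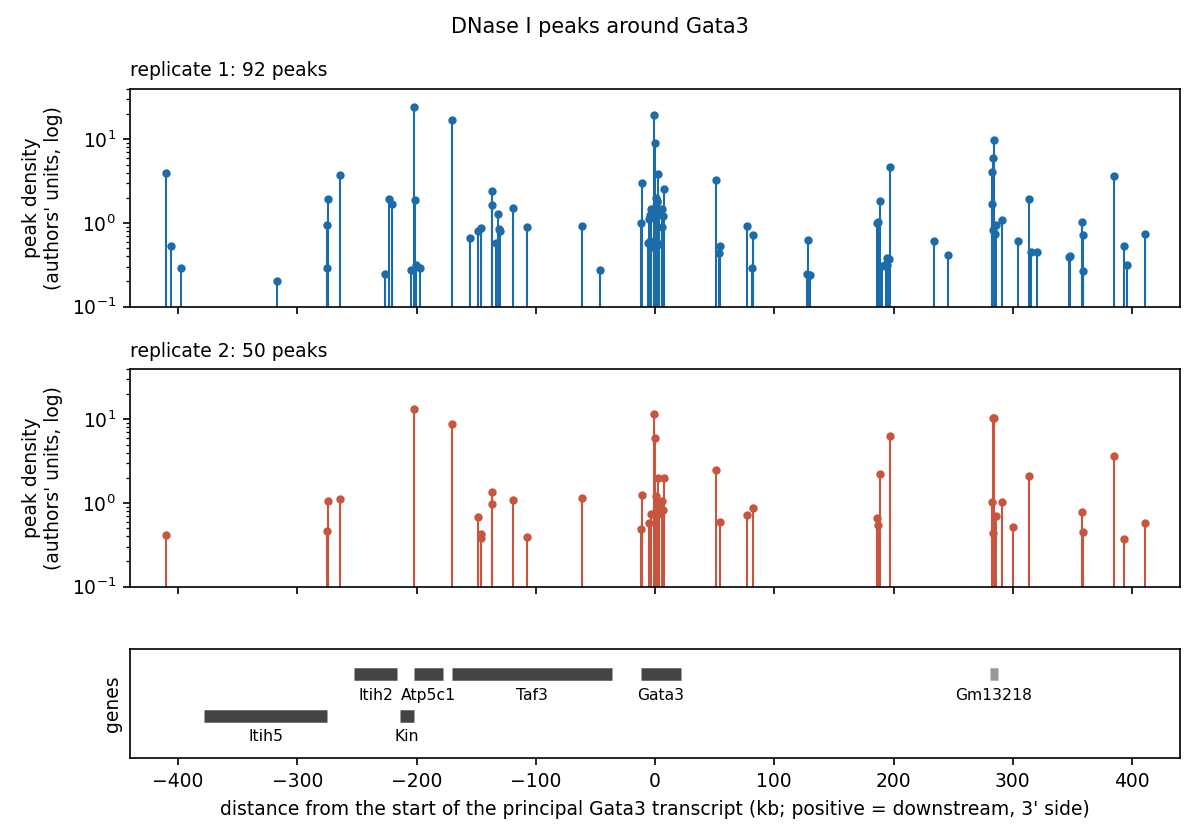
Density of each deposited peak (log axis, authors' units) against its distance from the principal Gata3 start in kb, for replicate 1 (upper panel, 92 peaks) and replicate 2 (middle panel, 50 peaks), with gene bodies below (dark bars protein-coding, the grey bar the lincRNA Gm13218). Each stem is 1 peak. Dense stems stand in both libraries at the gene start, near 283 and 284 kb downstream, and at the promoters of Taf3 and Atp5c1 upstream.

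Bases with a false discovery rate below 0.05, as the authors listed them for the cutting rate, numbered 29856 in replicate 1 and 16593 in replicate 2, a mean of 23224.5 ± 9378 (SD, n = 2). They made up 3.58% and 1.99% of the region, against 1.65% and 0.850% of the genome. Of these bases, 59.9% and 61.2% lay inside peaks of the same library. In both animals the share in the region was above that of the genome, and replicate 1 had the higher share in the region as well as genome-wide. The genome here is the full length of all assembled chromosomes, with Y and DNA far from genes included. Against windows around protein-coding genes the region stood out less, with more peaks per Mb than 67.1% and 66.7% of them.

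Sharing between the animals was close to complete for replicate 2, whose list was set against the longer list of replicate 1. Of the replicate 2 peaks, 49 of 50 (98%, 95% Wilson interval 89.5% to 99.6%) overlapped a replicate 1 peak by at least 1 bp, beside 88.8% of all its peaks. With the replicate 1 list reduced to the same length it was 44 of 50 (88%). In the other direction it was 49 of 92 (53.3%, 43.1% to 63.1%), beside 46.9% genome-wide, a background that lies within the interval. These intervals cover counting error only, with peaks taken as independent, and not the spread between animals. Read depth is not given in the sources used here. Of the peaks, 79 of 92 in replicate 1 and 45 of 50 in replicate 2 overlapped a footprint of the same library, beside 81.0% and 85.7% of all peaks. The deposited shorter peak list of each library held a counterpart for 59 of 92 and 33 of 50 of them, beside 69.7% and 69.9%. Footprints lay inside peaks in 222 of 249 and 129 of 149 cases, beside 82.8% and 83.3%. Between the libraries, 89 of 249 footprints of replicate 1 and 94 of 149 of replicate 2 overlapped, beside 35.7% and 67.9%. The shares for footprints shared between the animals were thus near their background.

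Overlapping peaks of both libraries were joined into 90 sites, of which 46 were shared, 43 were in replicate 1 alone and 1 in replicate 2 alone. The downstream side had 41 sites, 20 of them shared, the gene body 19 with 13 shared, and the upstream side 30 with 13 shared. Shared sites had a median density of 1.49 in replicate 1 and unshared ones 0.439, on the authors' density scale, whose scaling is not stated. Over the 46 shared sites, densities of the 2 libraries had a Spearman rho of 0.823 and, on the log10 scale, a Pearson r of 0.895. This is a description across sites of the same 2 libraries, and sites are not replicates.

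The gene start was the most accessible DNA of Gata3 itself. The densest site of the gene body lay not on the principal start but 1.08 kb upstream of it (chr2:9879561-9879800), in an intron of the longer models. Its density was 19.8 in replicate 1 and 11.7 in replicate 2, above 97.4% and 95.1% of the peaks of the same list. It held 5 and 4 footprints, and its lowest false discovery rate reached 149 and 67.2 on the −log10 scale. The site on the principal start (chr2:9878541-9878740) had densities of 9.08 and 6.05, above 92.5% and 88.4% of the peaks of each list, with 3 and 4 footprints. In both animals it was less dense than its neighbour, at 0.459 and 0.517 of that density.

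The 5′ end of the longer models was weaker. The site at that end (chr2:9889921-9890120) had densities of 1.01 and 0.486, and the site 10.9 kb upstream of the principal start (chr2:9889301-9889680), which also covers an exon of the gene 9230102O04Rik, had 3.04 and 1.24. Both were below the principal start in each library. Inside the first part of the principal transcript, a broad site 1.45 kb downstream of the start (chr2:9876606-9877700) joined 3 peaks of each library, with a highest density of 1.85 and 1.04. It held 67 CpG dinucleotides in 1095 bp, and 16 and 10 footprints. The intronic sites 2.41 kb (chr2:9876101-9876280) and 7.19 kb downstream (chr2:9871261-9871560) had densities of 3.80 and 1.98, and of 2.54 and 1.97. Both were called in each animal. The other 12 sites of the gene body ranged from 0.513 to 2.00 in replicate 1, and 6 of them had no peak in replicate 2. The last 14.2 kb of the gene body, at its 3′ end, held no peak in either library.

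**Figure D2:**
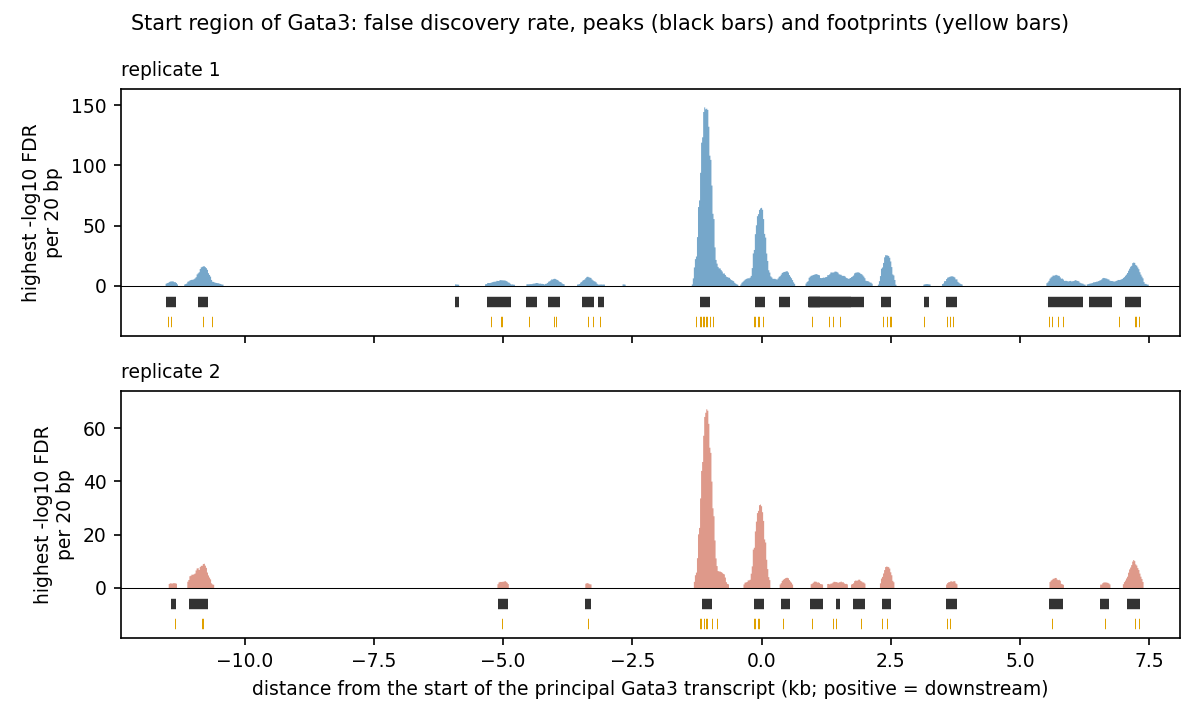
Highest −log10 false discovery rate per 20 bp (vertical axis) against distance from the principal Gata3 start in kb, for replicate 1 (upper) and replicate 2 (lower), whose vertical scales differ. Black bars are peaks and yellow bars footprints of that library. The highest summit in both lies 1.08 kb upstream of the start, followed by the start itself.

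Far downstream, the strongest distal sites formed a cluster. It lay 282 to 286 kb from the principal start, or 261 to 264 kb beyond the 3′ end of the gene body, and spanned 3796 bp (chr2:9592705-9596500). It falls in the stretch in which the far 3′ enhancer of T and NK cells is known from the literature, but the borders of that element were not among the sources used here and the overlap was not checked. All of the cluster lay in an intron of the lincRNA Gm13218. It comprised 6 sites, 5 of them shared, with 7 peaks in replicate 1 and 5 in replicate 2, and with 19 and 22 footprints. In this cluster replicate 2 had more footprints than replicate 1, although its list of footprints was the shorter.

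The 284 kb site had a density of 9.70 in replicate 1 and 10.5 in replicate 2, above 93.0% and 94.2% of the peaks of each list. By mean rank it was the first of the shared sites that lay outside promoters and wholly more than 1 kb from the principal start. The site 1.08 kb upstream reaches to within 1 kb of the start and was left out of this ranking. It held 3 footprints in each library and reached 44.6 and 91.3 on the −log10 false discovery rate scale. The 283 kb site (chr2:9595341-9595860) had densities of 5.98 and 10.3, above 88.6% and 94.1% of the peaks of each list, and was called as 2 peaks in replicate 1 and 1 in replicate 2. It was the site with the most footprints of the cluster, 10 and 13. The flanking sites were lower, with densities of 1.70 and 1.03 at 282 kb, 0.952 and 0.702 at 286 kb, and 0.825 and 0.438 between both strong sites. The sixth, at 285 kb, was in replicate 1 alone, at 0.735. The cluster therefore consisted of 2 dense sites with weaker sites around them in both animals.

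**Figure D3:**
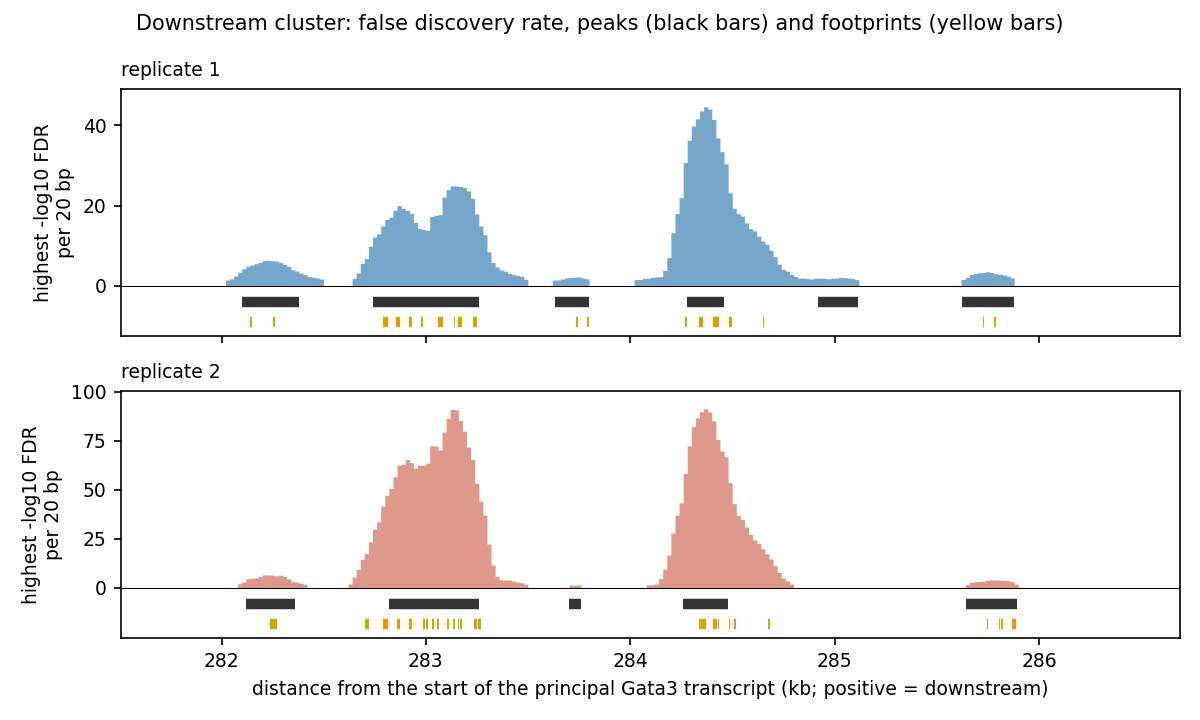
Highest −log10 false discovery rate per 20 bp (vertical axis) over the downstream cluster, against distance from the principal Gata3 start in kb, for replicate 1 (upper) and replicate 2 (lower), whose vertical scales differ. Black bars are peaks and yellow bars footprints. The summits near 283 and 284 kb stand in both libraries, at 24.9 and 44.6 in replicate 1 and at 91.0 and 91.3 in replicate 2.

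Other dense sites lay between the cluster and the gene, and beyond the cluster. The 197 kb site (chr2:9681681-9681960) had densities of 4.70 and 6.24 with 3 and 5 footprints. The site 385 kb downstream (chr2:9493861-9494040) had 3.60 and 3.62 with 0 and 1 footprint. The 50.8 kb site had 3.28 and 2.48 with 3 and 6 footprints. Weaker shared sites lay at 314 kb, with 1.91 and 2.13, and at 189 kb, with 1.82 and 2.22. No protein-coding gene starts on the downstream side of the region, and the nearest, Celf2, ended 2348 kb from the Gata3 gene body. All downstream sites were intergenic apart from those in Gm13218.

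By 100 kb step from the gene body, the downstream side held 6, 12, 14 and 9 peaks in replicate 1 and 4, 4, 8 and 5 in replicate 2, going outward. The medians over all genes were 8, 7, 6 and 6, and 4, 3, 3 and 2. The count was thus at or below the median next to the gene and above it farther out on this side in both animals. Upstream the count was also below the median next to the gene, but above it in both animals only from 100 to 200 kb. The first 100 kb there held 4 and 2 peaks against medians of 8 and 4, and the step from 100 to 200 kb held 16 and 8 against 6 and 3. The next steps held 7 and 3 against 6 and 3, and 4 and 1 against 6 and 2.

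**Figure D4:**
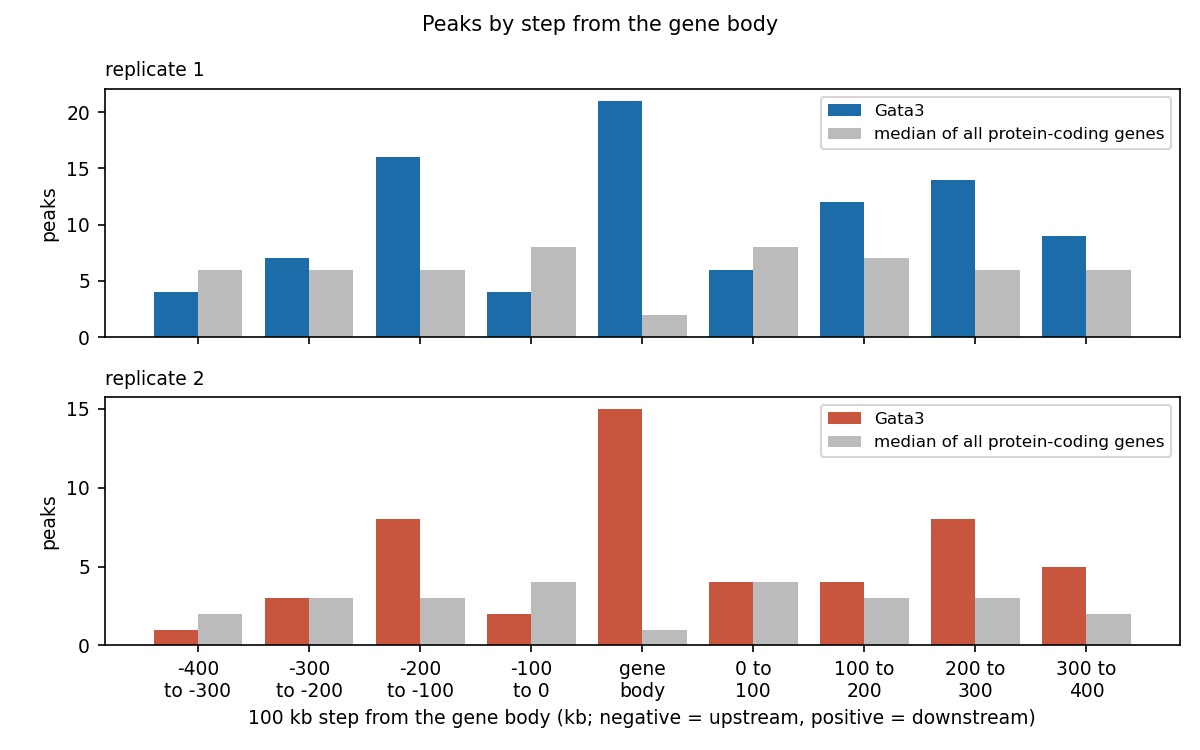
Number of peaks per 100 kb step from the Gata3 gene body (coloured bars) and median of all protein-coding genes (grey bars), for replicate 1 (upper) and replicate 2 (lower). The gene body, whose count is not scaled by gene length, has 21 and 15 peaks against medians of 2 and 1.

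On the upstream side, which holds other genes, the densest sites were promoters. The promoter shared by Kin and Atp5c1, the latter a subunit of mitochondrial ATP synthase, had densities of 24.3 and 13.1, the highest of the region in both libraries. The promoter of Taf3, a subunit of the general transcription factor TFIID, had 17.1 and 8.92. Itih5, which encodes a protein of the inter-alpha-trypsin inhibitor family, had 1.96 and 1.06 at its promoter, and Itih2 had no promoter peak. Away from promoters, the site 264 kb upstream (chr2:10142801-10143000) had 3.79 and 1.12. The site 410 kb upstream (chr2:10288641-10288820) differed most between the animals, at 3.96 and 0.414. The 3 densest unshared sites, all in replicate 1 alone, were in introns of Itih2 at 223 and 220 kb upstream (1.91 and 1.68) and in an exon of Atp5c1 at 201 kb upstream (1.90). At the last of these replicate 2 had no peak, yet it listed bases with a false discovery rate of 8.80 on the −log10 scale. The 1 site in replicate 2 alone lay 300 kb downstream, at 0.522.

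Relative to the densest site of the gene body, most downstream sites were denser in replicate 2 than in replicate 1, as were most pairs of peaks in the whole libraries. Because the scaling of the densities is not stated, ratios between the libraries are read against those of all peaks. Across 59843 overlapping pairs of peaks in the whole libraries, the log2 ratio of density in replicate 2 to replicate 1 had a median of -0.66. It was -0.85 for 16920 pairs at promoters and -0.54 for 42704 pairs away from promoters. Sites away from promoters thus had the higher ratio genome-wide as well. The shared sites of the Gata3 gene body had a median of -0.76 and none of 13 was denser in replicate 2. Upstream the median was -0.89, with 1 of 13 denser in replicate 2, and downstream it was -0.35, with 8 of 20. In the whole libraries a minority of pairs were denser in replicate 2: a log2 ratio of 0.00795, just above equal density, exceeded that of 84.4% of all pairs. Few sites denser in replicate 2 in the gene body and upstream are therefore no departure from all peaks. The 283 kb site had a log2 ratio of 0.79, above 98.7% of all pairs, the 197 kb site 0.41, and the 284 kb site 0.11, above 88.0%. Set against the site 1.08 kb upstream of the start in the same library, which needs no scaling between libraries, the 284 kb site stood at 0.490 in replicate 1 and 0.894 in replicate 2. The same ratio was 0.302 and 0.883 for the 283 kb site, and 0.237 and 0.534 for the 197 kb site. It was lower in replicate 2 at the weak site between the 284 and 283 kb sites (0.0417 and 0.0374) and at 187 kb (0.0516 and 0.0472). The reference site 1.08 kb upstream itself had a log2 ratio of -0.76, above 44.6% of all pairs. A rise relative to it was therefore common in the whole libraries. With 1 library per animal and 2 animals, the difference between the libraries has no test. The part of cell composition or library depth in it was not tested.

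**Figure D5:**
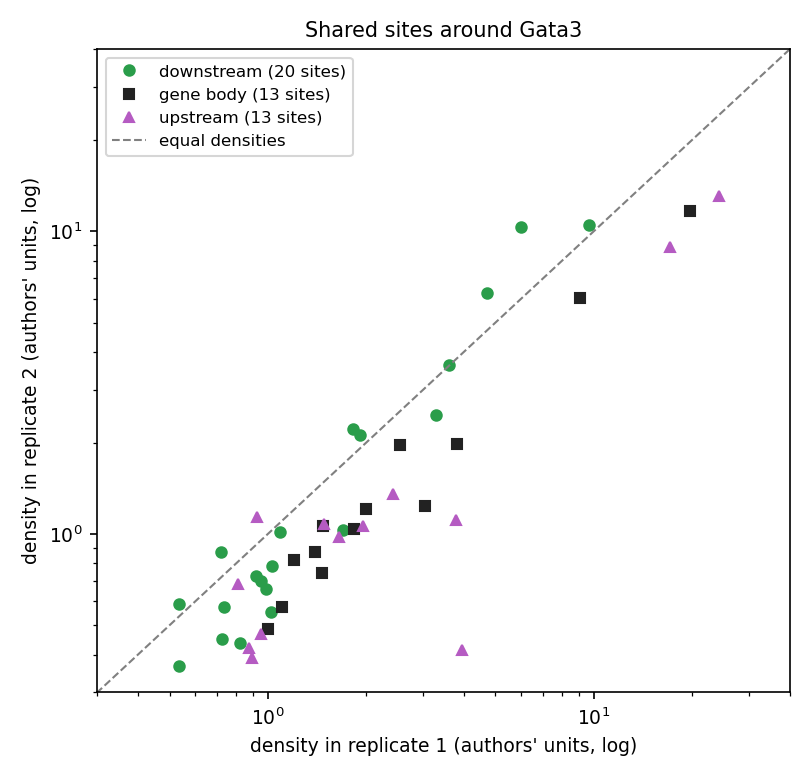
Density in replicate 2 against replicate 1 (log axes, authors' units) for the 46 shared sites, by position relative to the gene. The dashed line marks equal values. All 13 gene body sites lie below the line, and 8 of 20 downstream sites lie above it. Of all pairs in the whole libraries, 84.4% had a log2 ratio of replicate 2 to replicate 1 below 0.00795.

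The motif content of the peaks was close to that of all peaks. No motif searched contains another, though matches can overlap, as the MYB (CAGTTG) and RBPJ matches of the 283 kb site do. In the 300 bp around peak centres, both strands searched, GATA motifs (AGATAA or TGATAA) were found in 13.0% of the replicate 1 peaks of the region (Wilson interval 7.62% to 21.4%) and 12% of those of replicate 2 (5.62% to 23.8%). Over all peaks the shares were 17.7% and 15.3%. The RUNX motif (TGTGGT) was in 29.3% and 26%, beside 25.2% and 24.6% of all peaks, and the TCF/LEF motif (CTTTGA) in 22.8% and 24%, beside 18.9% and 18.3%. ETS motifs (CCGGAA or CAGGAA) were in 43.5% and 48%, beside 43.9% and 48.5%. E-protein motifs (CAGCTG or CAGGTG) were in 40.2% and 48%, beside 44.5% and 48.2%, and MYB motifs (CAACTG or TAACTG) in 21.7% and 20%, beside 24.7% and 22.6%. The RBPJ motif (TGGGAA) was in 23.9% and 20%, beside 24.8% and 23.1%, and the SP/KLF motif (GGGCGG) in 18.5% and 20%, beside 21.1% and 28.9%. The AP-1 motif (TGANTCA) was in 9.78% and 8%, beside 8.52% and 7.82%. The background lay inside the interval of each of these motifs in both libraries. A CTCF core (AGGGGGC or AGATGGC or AGGTGGC or AGAGGGC) was in 28.3% of replicate 1 peaks (20.1% to 38.2%), below its background of 39.3%, and in 26% of replicate 2 peaks (15.9% to 39.6%), an interval that includes its background of 36.2%.

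Genes that act with GATA3 were open almost throughout. Of 15 partners and T-lineage factors, among them Zfpm1, which encodes the GATA cofactor FOG1, Tcf7, Bcl11b and Runx1, 15 had a promoter peak in replicate 1 and 13 in replicate 2. Notch1 and Ets1 had none in replicate 2 at the outermost 5′ end, although 12 and 15 of its peaks lay in or near their gene bodies. Their windows held a median of 155 and 72 peaks, and the 92 and 50 of Gata3 lay above Tox (79 and 40) and Cbfb (87 and 47) alone. Of the other 5 GATA genes measured, Gata2 and Gata6 had a promoter peak in replicate 1 alone, and Gata1, Gata4 and Gata5 had none in either library. Of 6 Th2 genes, which GATA3 is known to activate in helper T cells, Il5 and Maf had a promoter peak in both animals, and Il4, Il13, Il1rl1 and Ccr4 in neither. These counts stand beside the background shares of 61.7% and 55.1% of all protein-coding genes.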

How the data were processed

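DNase-seq peaks, footprints and false discovery rates of 2 thymus libraries were used as deposited, on mm10 per the labels. The notes beside the files state that each was made from that library's own alignment. Aligner, callers, versions and read depth: not given in the sources used here. The density per peak is a signal made by the authors, with unstated scaling, so peaks were ranked within a list. The deposited false discovery rates are q-values and list only values below 0.05. The footprints that the authors deposited carry the same score in every line, so only positions were used. The longer of the 2 peak lists of each library was the main one.

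Genes came from GENCODE M21 and sequence from RefSeq GRCm38.p6. Sites are peaks of both libraries joined where they overlap by at least 1 bp. The sites named are those at the Gata3 starts and in its gene body, and the 3 densest unshared ones. The 10 shared sites of best mean density rank, outside promoters and wholly over 1 kb from the principal start, are named too. Sites and genes added to these, such as the weaker sites of the cluster and those that differ most, were chosen after their values were seen. The region, gene lists and motifs were chosen with earlier results of these data known. The result of 1 marker gene is not reported here. With 1 group of 2 animals there was no test, and intervals are 95% Wilson intervals. Overlap counts were tested on simulated data. The software was Python 3.11.15 with pandas 2.3.3 and numpy 2.4.6, scipy 1.17.1 for intervals and correlations, and matplotlib 3.10.9. Alternatives were the shorter lists, 200 kb flanks, the denser 50% of peaks, lists of equal length, a reciprocal overlap, a stricter false discovery rate and leaving out each library.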

Additional observations from a re-analysis of the deposited data

How the results depend on the processing

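The mean number of peaks in the Gata3 region was 71. It was 46.5 with the shorter deposited lists, 45.5 with 200 kb on each side and 37.5 with the denser 50% of each list. The share of replicate 1 peaks with a partner in replicate 2, 53.3%, was 84.6% with the longer list reduced by density to the length of the other, and 42.4% with a reciprocal overlap of 50%. The share of replicate 2 peaks with a partner, 98%, was 100% with 200 kb flanks, 100% with the denser 50%, 88% with the reduced list and 78% with the reciprocal overlap. The mean number of listed bases, 23224.5, was 15365.5 with 200 kb flanks and 15227 at a false discovery rate of at most 0.001. Narrower flanks, fewer peaks and stricter limits lower counts by construction. With either library left out, peaks were 50 to 92, footprints 149 to 249 and listed bases 16593 to 29856. No paired analysis was possible because there is 1 group. Read depth is unknown, so a site without a peak in replicate 2 may have been below its depth.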

Other observations

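The spread of peaks around Gata3 was compared with that around every other protein-coding gene, by the Pearson correlation of 18 values. These were log2(1 + peaks) in 9 steps of both libraries. Steps of the same library share its depth, and genes are not independent. The most alike were Antxr1 (0.867), Tjp1 (0.855), Tox (0.855), Crtc3 (0.855) and Tbc1d1 (0.853), against a median of 0.00643 over all genes. Of these, Tox encodes a nuclear factor needed for the development of CD4 T cells. Its gene body (chr4:6686353-6991557) held 28 and 17 peaks in replicates 1 and 2, and that of Antxr1 (chr6:87133853-87335821) 29 and 14. That of Tjp1 held 11 and 2, of Crtc3 20 and 15, of Tbc1d1 24 and 16, and of Gata3 21 and 15. Counts were not scaled by length, and each of these genes has a longer body than Gata3 (32957 bp), so like counts are not like densities.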
